A study of Mus musculus with 20 samples.

Results

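The genes described here are 42 genes of protein folding and of the stress response in the endoplasmic reticulum (ER), followed in hypothalamic AgRP neurons of fasted and fed mice with and without the gene Phf6. They were chosen as a named list, by gene symbol, from the 23129 genes of the deposited count table. The symbols of 41 members stood in the table, and Selenos was matched to its older symbol through the RefSeq synonyms. All 42 passed the filter on low counts, as did 13237 genes in all. AgRP neurons are hunger neurons that release the peptides AgRP and NPY, and Phf6 encodes a chromatin-binding protein on the X chromosome. The 20 libraries formed 4 groups of 5. Fasted cKO and fed cKO mice carried Phf6 flox/y, AgRP-Cre/+ and Ai9/+, while fasted wild type and fed wild type mice were littermates with AgRP-Cre/+ and Ai9/+ and no floxed allele. Every group therefore carried the Cre driven from AgRP and its red tdTomato reporter, and the deletion reached only cells that expressed that Cre. The mice were C57BL/6, 25 to 30 days old. Fasted mice had lost access to food at 5 pm on the day before and kept water. About 1000 tdTomato-positive neurons were sorted for each library after papain dissociation of a 1 mm hypothalamic punch. The labels do not say whether the 5 libraries of a group came from 5 mice, so p-values measure the spread between these libraries, which may in part be technical.

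Proteins bound for secretion or for membranes fold in the ER with the help of chaperones, disulfide-forming enzymes and a glycan-reading cycle, and chains that fail are returned to the cytosol and destroyed by ER-associated degradation. When unfolded chains build up, the sensors IRE1, PERK and ATF6 start the unfolded protein response, in which XBP1 and cleaved ATF6 switch on genes for chaperones and degradation factors. AgRP neurons release peptides that are made through this route.

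Depth ran from 8494499 to 13573524 counts per library, and fasted libraries were shallower than fed ones (8494499 to 10000278 counts against 10604977 to 13573524). Levels are given in CPM, a gene's counts relative to the total of its library after TMM scaling. Phf6 itself had 61.2 ± 6.9 CPM in fasted cKO and 128 ± 11 CPM in fasted wild type libraries, and 70.7 ± 4.85 CPM in fed cKO and 276 ± 10.2 CPM in fed wild type libraries (SD, n = 5 each). It was lower in cKO in both states, and also lower in fasted than in fed wild type libraries. The labels do not give the exons that the floxed allele loses, and reads from exons that remain would still be counted, so these counts check the deletion only in part. Of the 8 AgRP neuron markers, all past the filter and at 0 in no library, Agrp had means of 11310 CPM in fasted cKO, 14930 CPM in fasted wild type, 5066 CPM in fed cKO and 4554 CPM in fed wild type neurons. Npy was higher still, Gad1, Gad2 and Lepr had group means of 47.3 to 399.6 CPM, and Corin and Otp of 17.3 to 36.0 CPM. The GABA transporter gene Slc32a1 was low and lower in fasted groups, at 5.77 CPM in fasted cKO and 6.52 CPM in fasted wild type, against 8.13 CPM in fed cKO and 10.2 CPM in fed wild type neurons. Microglia and macrophage markers summed to at most 0.42 CPM in any library, and Tmem119 was at 0 in all 20. Among the fasted libraries, replicates 1 and 2 stood apart from replicates 3 to 5 in both genotypes. The mean correlation of deviations from the group mean was -0.09 within these sets and -0.35 between them in fasted cKO, and 0.04 within and -0.44 between in fasted wild type libraries. Calls that appear or are lost with one of these sets alone are given with the adjusted p from that set.

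Markers of other cells also moved with fasting. The 7 astrocyte markers, 4 of them past the filter, summed to 40.7 to 94.2 CPM in fasted cKO and 31.8 to 58.6 CPM in fasted wild type libraries, against 27.5 to 56.8 CPM in fed cKO and 6.57 to 13.2 CPM in fed wild type libraries. Agt was the largest part, at means of 53.7 CPM in fasted cKO, 35.9 CPM in fasted wild type, 35.2 CPM in fed cKO and 5.22 CPM in fed wild type libraries, while Aqp4 and Gfap averaged at most 0.574 CPM in any group. Pomc neuron markers, 4 of 5 past the filter, summed to 460 to 1120 CPM in fasted cKO and 403 to 499.6 CPM in fasted wild type libraries, against 371 to 503 CPM in fed cKO and 331 to 438 CPM in fed wild type libraries. Fasted cKO replicates 3 to 5 held the values from 849 CPM upward. Markers of other hypothalamic neurons, 7 of 13 past the filter and led by Pdyn and Th, summed to 45.1 to 87.2 CPM in fasted cKO and 51.0 to 77.6 CPM in fasted wild type libraries, against 18.6 to 25.2 CPM in fed cKO and 21.9 to 27.8 CPM in fed wild type libraries. Of these, Ghrh averaged 15.5 CPM in fasted cKO and at most 0.0443 CPM in the other groups. Oligodendrocyte markers, 4 of 8 past the filter, were lower in fasted libraries, at 49.9 to 65.7 CPM in cKO and 49.98 to 73.7 CPM in wild type, against 82.6 to 103 CPM in fed cKO and 90.5 to 104 CPM in fed wild type libraries. Markers of tanycytes and ependyma, 4 of 7 past the filter and mostly Vim, summed to 23.4 to 48.7 CPM in fasted cKO and 29.3 to 44.4 CPM in fasted wild type libraries, against 35.2 to 45.1 CPM in fed cKO and 43.9 to 65.8 CPM in fed wild type libraries. Endothelial markers (3 of 6 past the filter) stayed between 7.88 and 37.4 CPM, and mural cell and fibroblast markers (2 of 7) between 2.48 and 8.9 CPM, with overlapping groups. The part of these cells in the results below was not tested. In sorted bulk samples, fewer cells of a kind and less RNA per cell cannot be told apart.

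The promoters of 38 members are in the RefSeq table for GRCm38.p6, as windows from 250 bases before to 50 bases after the gene start, and they were searched on both strands for the motifs through which ATF6 and XBP1 are known to act. Some genes have several windows, and a gene was counted when any of its windows held the motif. The ER stress element, CCAAT and CCACG spaced by 9 bases, lay in windows of 10 of the 38 members (26.3%). Over all genes it lay in windows of 37 of 27025 (0.137%). The second element, ATTGG, 1 base and CCACG, lay in the windows of Dnajb11 and Herpud1 (5.26% of members) and in 12 of all genes (0.0444%). The XBP1 motif TGACGTGG lay in a window of Txndc5 and of Txndc11 (5.26%), against 0.714% of all genes. Both of these genes also have windows without it. The shorter parts were common, with CCACG in windows of 29 members (76.3%, against 35.5% of all genes) and CCAAT of 31 (81.6%, against 41.1%). The elements are printed 5′ to 3′ along their own strand with the letters searched for in capitals, because they are the motifs by which this response is known to reach its genes. Those of the luminal chaperones were the following.
Hspa5 (chr2:34772015-34772053, plus strand): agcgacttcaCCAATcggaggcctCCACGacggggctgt
Hsp90b1, farther (chr10:86705628-86705666, minus strand): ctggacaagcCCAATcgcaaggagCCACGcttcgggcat
Hsp90b1, nearer (chr10:86705523-86705561, plus strand): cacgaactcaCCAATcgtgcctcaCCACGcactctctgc
Dnajc3 (chr14:118937817-118937855, plus strand): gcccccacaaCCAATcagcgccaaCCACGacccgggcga
Creld2 (chr15:88819510-88819548, minus strand): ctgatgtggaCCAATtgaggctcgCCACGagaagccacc
Dnajb11, second element (chr16:22857847-22857867, plus strand): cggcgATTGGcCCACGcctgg

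The remaining matches lay at lectin chaperones, disulfide enzymes and degradation genes, and are shown so that the bases between and around the capitals can be compared.
Calr (chr8:84847065-84847103, plus strand): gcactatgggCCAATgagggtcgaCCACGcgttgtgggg
Canx (chr11:50325790-50325828, minus strand): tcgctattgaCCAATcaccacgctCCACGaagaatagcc
Pdia6 (chr12:17266481-17266519, plus strand): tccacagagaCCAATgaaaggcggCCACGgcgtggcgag
Ero1lb (chr13:12565672-12565710, minus strand): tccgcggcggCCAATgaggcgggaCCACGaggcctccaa
Txndc5, XBP1 motif (chr13:38528040-38528057, minus strand): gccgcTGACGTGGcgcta
Txndc11, XBP1 motif (chr16:11134622-11134639, minus strand): gtggcTGACGTGGagagt
Syvn1 (chr19:6046522-6046560, plus strand): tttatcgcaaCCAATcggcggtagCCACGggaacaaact
Derl3 (chr10:75893232-75893270, minus strand): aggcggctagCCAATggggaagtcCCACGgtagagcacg
Herpud1, second element (chr8:94386372-94386392, plus strand): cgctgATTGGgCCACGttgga
The end of the ER stress element farther from the gene start lay 65 bases before it in Hspa5, 44 in Syvn1, 98 in Pdia6, 105 in Dnajc3, 126 in Creld2, 145 in Canx, 156 in Derl3, 162 in Calr and 201 in Ero1lb. Hsp90b1 had elements at 212 and 107 bases before its start, on opposite strands. The element of Creld2 runs opposite to that gene, and the same bases lie in the window of Alg12, its neighbour on the other strand. A match is a description of these letters and not a measured site.

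Most of these genes were higher in fasted than in fed neurons, by count more of them in cKO than in wild type. In cKO neurons 31 members rose on fasting, 1 fell and 10 did not pass edgeR's quasi-likelihood test at an adjusted p under 0.05, where 26% of all tested genes rose and 27% fell. In wild type neurons 22 rose, 4 fell and 16 did not pass, where 29.6% of all tested genes rose and 31.3% fell. The median member log2 fold change was 0.50 in cKO, against -0.03 over all tested genes, and 0.29 in wild type, against -0.03. The 5 fasted and 5 fed libraries did not overlap for 26 members in cKO and for 24 in wild type. The share of all tested genes without overlap was not counted, so these counts are no result about the members. Together the members took a median of 1.18% of all counts in fasted cKO and 1.07% in fasted wild type libraries, and 0.861% in fed cKO and 0.891% in fed wild type libraries. The ranges were 1.11 to 1.25% in fasted cKO and 1.01 to 1.14% in fasted wild type, which overlap, and 0.847 to 0.88% in fed cKO and 0.883 to 0.906% in fed wild type, which do not.

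**Figure D1:**
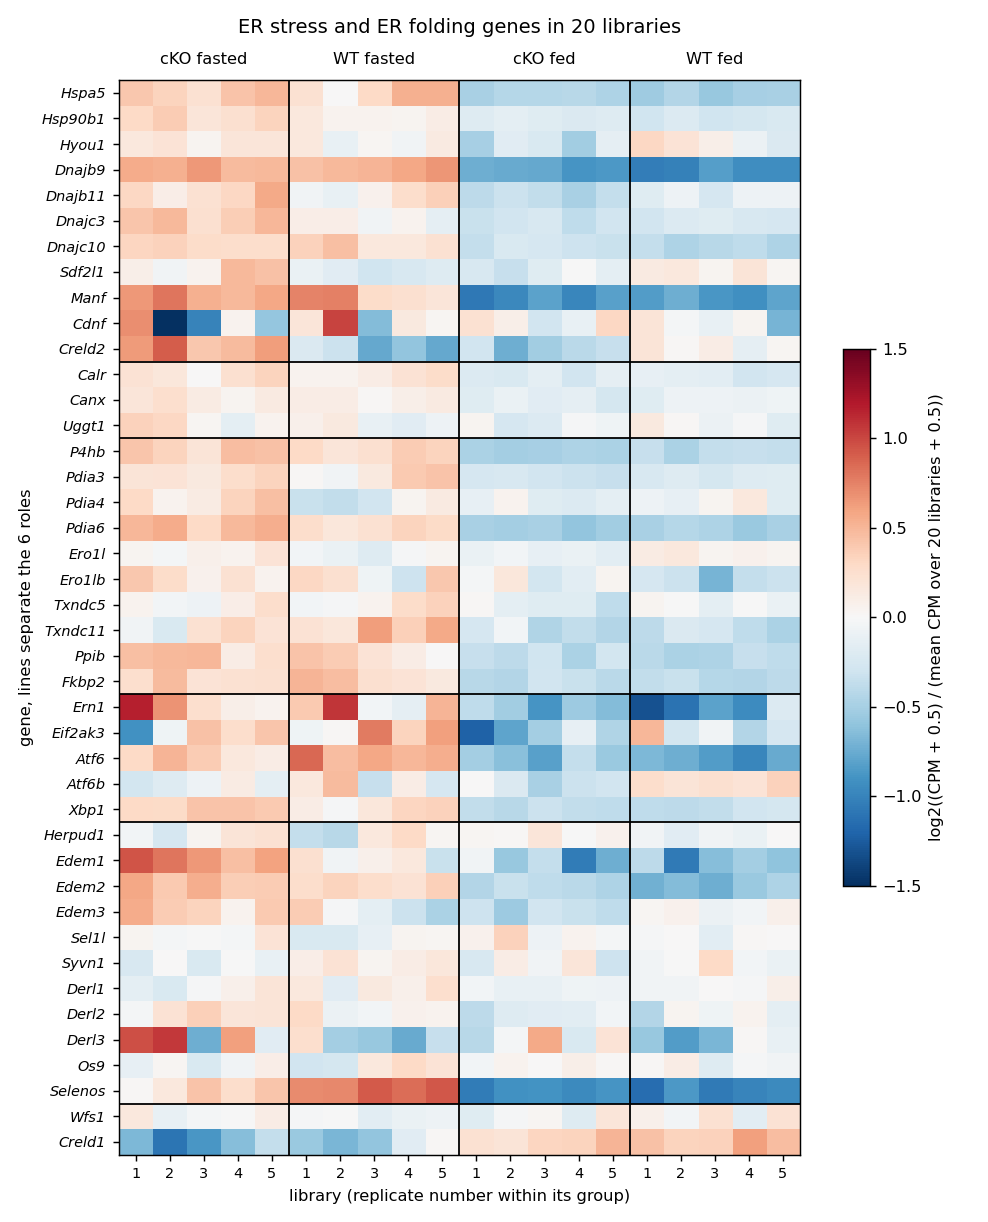
Each row is a member and each column a library. Colour gives log2 of its CPM over its mean in the 20 libraries, with 0.5 CPM added to both, red above and blue below the mean, and colours stop at 1.5. Most rows are red in the 10 fasted columns and blue in the 10 fed ones, Creld1 runs the other way, and Creld2, Sdf2l1 and Edem3 are redder in fasted cKO than in fasted wild type columns.

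Of these calls, 21 genes rose in both genotypes and Creld1 fell in both. Sdf2l1, Creld2 and Ero1l rose in cKO and fell in wild type. Hyou1, Uggt1, Pdia4, Txndc5, Eif2ak3, Edem3 and Derl2 rose past the threshold in cKO alone, and Ero1lb in wild type alone. The test of the difference itself, the interaction of genotype with fasting, called 11 members. The log2 fasting effect, with its sign, was higher in cKO for 9, where 8.87% of all tested genes were called higher. It was lower in cKO for 2, where 8.44% were called lower. Uggt1, Txndc5, Eif2ak3, Derl2 and Ero1lb were not among these 11, so their fasting effect was not shown to differ between the genotypes. Cdnf, Atf6b, Herpud1, Sel1l, Syvn1, Derl1, Derl3, Os9 and Wfs1 passed in neither genotype. With fasted replicates 3 to 5 alone the counts were 31 higher and 1 lower in cKO, 27 and 5 in wild type, and 10 and 3 for the interaction. With fasted replicates 1 and 2 alone they were 27 and 2 in cKO, 21 and 8 in wild type, and 13 and 1 for the interaction.

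Several calls turned on these sets, which leave 3 or 2 libraries in each fasted group. For the interaction, fasted replicates 1 and 2 alone added Pdia3 (0.31, adjusted p = 0.000409), Xbp1 (0.30, adjusted p = 0.00455), P4hb (0.27, adjusted p = 0.0107), Hspa5 (0.21, adjusted p = 0.025), Canx (0.19, adjusted p = 0.0396) and Hsp90b1 (0.18, adjusted p = 0.0372). With that set all 6 were higher in cKO, and none of them was among the 11 interaction calls made with all libraries. With replicates 3 to 5 alone, the interaction was 0.002 for Pdia3 (adjusted p = 0.985), 0.165 for Xbp1 (adjusted p = 0.054) and 0.16 for P4hb (adjusted p = 0.1). It was -0.125 for Hspa5 (adjusted p = 0.174), 0.09 for Canx (adjusted p = 0.261) and 0.11 for Hsp90b1 (adjusted p = 0.123). With all libraries, Xbp1 did pass in edgeR with a replicate block (0.21, adjusted p = 0.0444) and with offsets for GC content and length (0.21, adjusted p = 0.0265). P4hb passed with those offsets (0.205, adjusted p = 0.0368) and in DESeq2 (0.19, adjusted p = 0.0457). Both also passed without some single libraries. Fasted replicates 3 to 5 alone added Manf (0.39, adjusted p = 8.11e-05), Atf6b (0.66, adjusted p = 0.0222) and Os9 (-0.33, adjusted p = 0.0106). With replicates 1 and 2 alone, the interaction was 0.09 for Manf (adjusted p = 0.495) and -0.04 for Atf6b (adjusted p = 0.945). For Os9 that set gave the opposite sign (0.20, adjusted p = 0.216). For genotype in fasted mice, replicates 1 and 2 alone added Hspa5 (0.27, adjusted p = 0.00148), Pdia3 (0.23, adjusted p = 0.00253), Dnajb11 (0.31, adjusted p = 0.0194) and Herpud1 (0.26, adjusted p = 0.0328). Replicates 3 to 5 alone added Manf (0.29, adjusted p = 0.000156), Os9 (-0.29, adjusted p = 0.00545) and Creld1 (-0.39, adjusted p = 0.0441). With all libraries, Creld1 also passed with a replicate block (-0.34, adjusted p = 0.0316). Dnajb11 did so with offsets for GC content and length (0.21, adjusted p = 0.0362). Manf, Creld1 and Dnajb11 also passed without some single libraries. Txndc11 was lower in fasted cKO with upper-quartile scaling (-0.33, adjusted p = 0.0426). It also passed without some single libraries (adjusted p = 0.0324 to 0.0386).

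For fasting in cKO, replicates 1 and 2 alone added Herpud1 (-0.20, adjusted p = 0.0141), Ero1lb (0.40, adjusted p = 0.0293) and Derl3 (1.12, adjusted p = 0.0312), and replicates 3 to 5 added Derl1 (0.17, adjusted p = 0.0151). For fasting in wild type, replicates 3 to 5 alone added rises of Herpud1 (0.24, adjusted p = 0.000675), Os9 (0.25, adjusted p = 0.00161), Txndc5 (0.27, adjusted p = 0.00287), Eif2ak3 (0.69, adjusted p = 0.00809) and Derl1 (0.17, adjusted p = 0.0121). They also added falls of Edem3 (-0.32, adjusted p = 0.00301) and Atf6b (-0.41, adjusted p = 0.0194). Replicates 1 and 2 alone added falls of Pdia4 (-0.34, adjusted p = 0.0013) and Sel1l (-0.22, adjusted p = 0.0295), and those of Herpud1 and Os9 given below. Calls lost with a set are given with their genes.

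**Figure D2:**
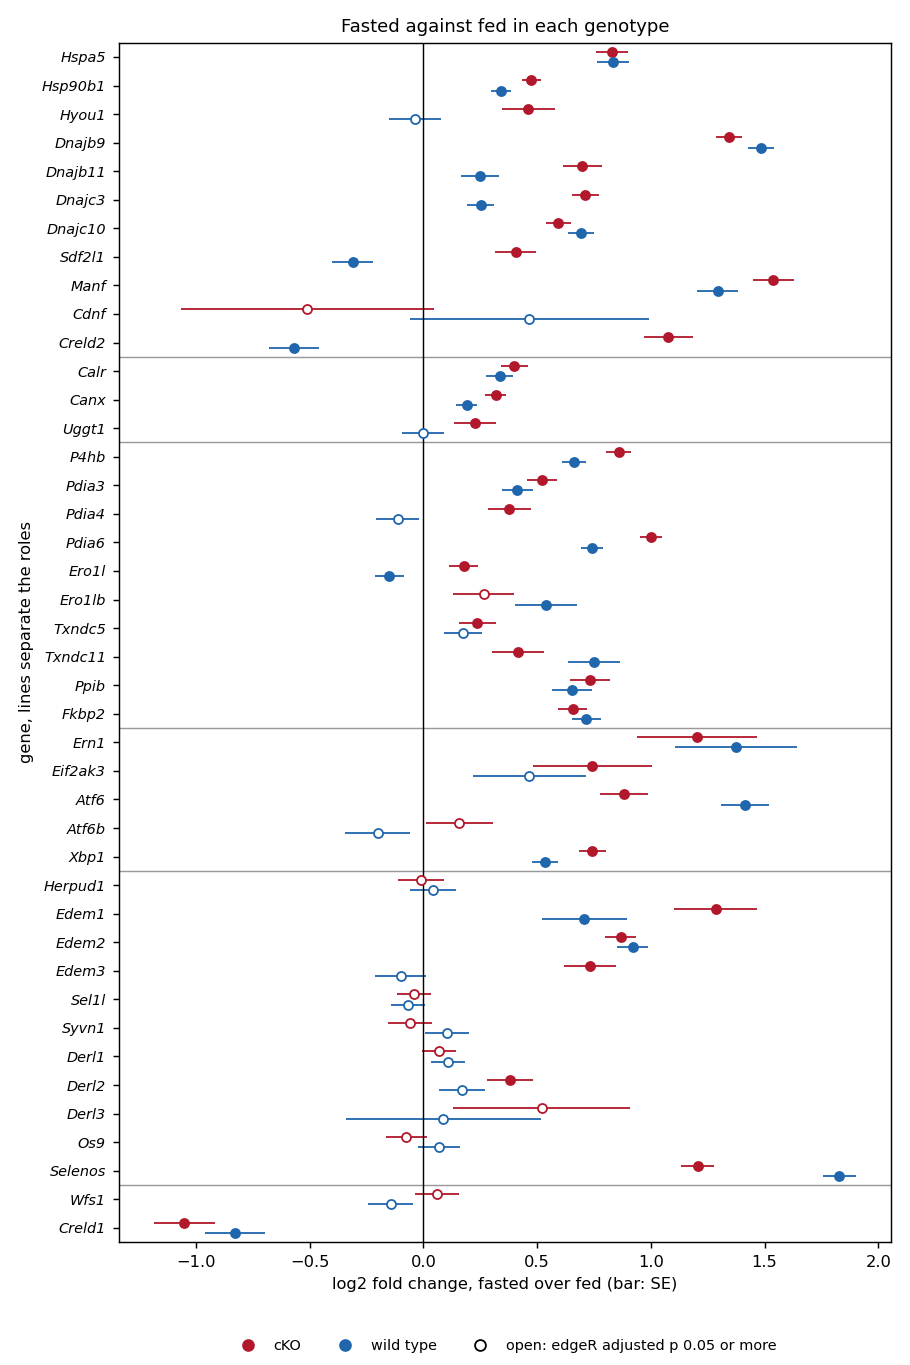
Points are log2 fold changes of fasted over fed for the 42 members, cKO in red above wild type in blue, with bars of 1 SE from edgeR. Filled points passed an adjusted p of 0.05. Dnajb9, Manf, Ern1, Atf6, Edem1 and Selenos lie farthest right in one or both genotypes, Creld1 farthest left among the filled points, and Creld2 and Sdf2l1 lie on opposite sides of 0 in cKO and wild type.

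Of the 11 luminal chaperones and their partners, 10 rose on fasting in cKO, where 26% of all tested genes rose. In wild type 7 rose, where 29.6% of all tested genes did, and Sdf2l1 and Creld2 fell, where 31.3% did. Hspa5 encodes BiP, the Hsp70 of the ER lumen, which holds unfolded chains and keeps the sensors inactive. In cKO neurons it had 2134, 2026, 1888, 2166 and 2277 CPM fasted, against 1148, 1193, 1199, 1208 and 1164 CPM fed. In wild type neurons it had 1880, 1612, 1974, 2330 and 2327 CPM fasted, against 1108, 1191, 1086, 1144 and 1146 CPM fed. Every fasted library lay above every fed one. The log2 fold change, given here and below with its SE and edgeR's adjusted p, was 0.83 ± 0.07 (adjusted p = 1.1e-10) in cKO and 0.83 ± 0.07 (adjusted p = 4.39e-11) in wild type. Dnajb9 (ERdj4), a J-domain partner of BiP at chr12:44205559-44210326, minus strand on GRCm38, changed most in this role in wild type neurons. Its level was 321, 315, 344, 303 and 307 CPM in fasted cKO libraries, against 131, 129.6, 128, 118 and 120.3 CPM in fed cKO libraries. It was 295, 306, 312, 326 and 346 CPM in fasted wild type libraries, against 106, 108, 123, 115 and 114 CPM in fed wild type libraries. Neither pair of groups overlapped, with log2 fold changes of 1.34 ± 0.058 (adjusted p = 1.87e-16) in cKO and 1.49 ± 0.058 (adjusted p = 4.74e-18) in wild type. Manf encodes a luminal protein that binds BiP and is also secreted as a survival factor. Its libraries held 687, 769, 637, 613 and 657 CPM in fasted cKO, against 209, 224, 251, 223 and 249.9 CPM in fed cKO. In wild type they held 735, 741, 533, 520.3 and 499 CPM fasted, against 246, 263, 239.5, 233 and 254 CPM fed. All fasted values were above all fed ones, and fasted wild type replicates 1 and 2 lay well above replicates 3 to 5. The log2 fold change was 1.54 ± 0.092 (adjusted p = 1.49e-13) in cKO and 1.29 ± 0.092 (adjusted p = 1.43e-12) in wild type. With fasted replicates 3 to 5 alone its fasting effect was larger in cKO than in wild type (interaction 0.39, adjusted p = 8.11e-05), while with all 5 that difference did not pass (0.25, adjusted p = 0.192). Of the exon bases of Manf, 9.25% are shared with other genes.

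Dnajc10 (ERdj5), which reduces wrong disulfides in chains bound for destruction, rose by similar amounts, with log2 fold changes of 0.59 ± 0.056 (adjusted p = 8.88e-10) in cKO and 0.69 ± 0.056 (adjusted p = 2.31e-11) in wild type. Hsp90b1 (GRP94), the Hsp90 of the ER lumen, averaged 1605 ± 84.8 CPM in fasted cKO and 1390 ± 47.1 CPM in fasted wild type libraries, and 1156 ± 21.4 CPM in fed cKO and 1097 ± 32.1 CPM in fed wild type libraries (SD, n = 5 each). It rose by 0.47 ± 0.043 (adjusted p = 4.57e-10) in cKO and by 0.34 ± 0.043 (adjusted p = 1.01e-07) in wild type on the log2 scale. It was also higher in fasted cKO than in fasted wild type libraries, without overlap (0.21 ± 0.043, adjusted p = 0.00125). Its exons share 15.7% of their bases with other genes, mostly 1810014B01Rik on the opposite strand, and the kits do not mark strand, so its reads are uncertain to that extent. Cdnf, the paralog of Manf, was barely expressed, between 0 and 1.88 CPM in fasted cKO, 0.434 and 2.45 CPM in fasted wild type, 0.701 and 1.32 CPM in fed cKO and 0.402 and 1.17 CPM in fed wild type libraries. In the library at 0, a count of 0 allows up to 0.379 CPM, and no difference in Cdnf was detectable at this depth.

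Creld2 showed the largest difference between the genotypes among members in fasted neurons and in the interaction. It encodes a luminal protein known to be induced by ER stress, at chr15:88819646-88826683, plus strand. Its level was 84.9, 102, 72.2, 75.9 and 84.2 CPM in fasted cKO libraries, against 46.99, 43.5, 31.8, 35.9 and 31.7 CPM in fasted wild type libraries. In fed libraries it was 44.5, 32.7, 37.9, 41.1 and 42.9 CPM in cKO, against 62.1, 55.2, 58.7, 49.7 and 55.4 CPM in wild type. No cKO library overlapped a wild type one in either state, with cKO above wild type when fasted and below it when fed. The log2 difference of cKO from wild type was 1.15 ± 0.11 (adjusted p = 7.99e-08) when fasted and -0.50 ± 0.11 (adjusted p = 0.00259) when fed. Fasting changed Creld2 by 1.08 ± 0.11 (adjusted p = 2.65e-09) in cKO and by -0.57 ± 0.11 (adjusted p = 5.98e-05) in wild type, and the interaction was 1.65 ± 0.15 (adjusted p = 2.33e-08). Across the 29 alternative settings the interaction stayed between 1.57 and 1.75 with adjusted p up to 1.69e-07.

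Sdf2l1, which works in a complex with BiP and Dnajb11, followed the same pattern with smaller values. It had 65.9, 59.4, 64.1, 86.9 and 84.3 CPM in fasted cKO libraries, against 57.6, 54.9, 50.2, 52.2 and 54.2 CPM in fasted wild type libraries. When fed it had 52.4, 48.7, 54.3, 61.4 and 55.8 CPM in cKO, against 67.9, 68.8, 63.4, 70.6 and 63.3 CPM in wild type. Fasted cKO replicates 4 and 5 were the highest of all, and neither pair of genotypes overlapped, while fasted and fed cKO libraries did. Its fasting effect was 0.41 ± 0.09 (adjusted p = 0.000387) in cKO and -0.31 ± 0.09 (adjusted p = 0.00392) in wild type, and the interaction was 0.72 ± 0.13 (adjusted p = 0.000238). With fasted replicates 1 and 2 alone, its rise in cKO (0.20, adjusted p = 0.0561) and the fasted genotype difference (0.17, adjusted p = 0.345) did not pass, while the interaction did (0.47, adjusted p = 0.0103).

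Dnajc3 and Dnajb11, both J-domain partners of BiP, rose in both genotypes and more in cKO. Dnajc3 had 211, 223, 187, 205 and 224 CPM in fasted cKO libraries, against 169, 170.2, 153, 164 and 144 CPM in fasted wild type libraries. In fed libraries it had 126, 129, 134, 122 and 129.7 CPM in cKO, against 129.5, 137, 139, 134 and 133 CPM in wild type. The fasted groups were apart and the fed groups overlapped. Fasting changed it by 0.71 ± 0.059 (adjusted p = 6.42e-11) in cKO and 0.25 ± 0.059 (adjusted p = 0.000566) in wild type, with an interaction of 0.46 ± 0.083 (adjusted p = 0.00028). Dnajb11 had 129, 111, 121, 128 and 153 CPM in fasted cKO, against 100.2, 95.5, 108, 124 and 132 CPM in fasted wild type libraries. Fed, it had 78.6, 82.6, 80.01, 73.97 and 80.7 CPM in cKO, against 91.6, 98.3, 86.6, 98.1 and 97.8 CPM in wild type. Here the fasted groups overlapped and the fed groups did not. Its fasting effect was 0.699 ± 0.084 (adjusted p = 5.93e-08) in cKO and 0.25 ± 0.083 (adjusted p = 0.0118) in wild type, with an interaction of 0.45 ± 0.12 (adjusted p = 0.008). The wild type rise of Dnajb11 did not pass without fasted wild type replicate 5 (0.18, adjusted p = 0.0639) or with fasted replicates 1 and 2 alone (0.03, adjusted p = 0.718).

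Hyou1 (GRP170), which exchanges nucleotide on BiP, rose in cKO and did not pass in wild type neurons. It had 21.8, 22.5, 20.1, 22.1 and 22.1 CPM in fasted cKO libraries, against 21.7, 17.9, 19.96, 18.8 and 21.5 CPM in fasted wild type libraries. Fed libraries had 13.7, 17.2, 16.5, 13.4 and 17.8 CPM in cKO, against 24.3, 22.5, 20.8, 18.2 and 16.7 CPM in wild type. The cKO groups were apart between fasted and fed, while the wild type fasted and fed groups overlapped, as did the genotypes in either state. The fasting effect was 0.46 ± 0.12 (adjusted p = 0.00135) in cKO and -0.04 ± 0.11 (adjusted p = 0.8) in wild type. The interaction, 0.498 ± 0.16 (adjusted p = 0.0335), lost its call without fasted wild type replicate 2 or 4, fed wild type replicate 1 or 2 or fed cKO replicate 1 or 4 (adjusted p = 0.0502 to 0.0724), and with either set of fasted replicates alone (adjusted p = 0.0576 and 0.088) or with no filter on low counts (adjusted p = 0.054).

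**Figure D3:**
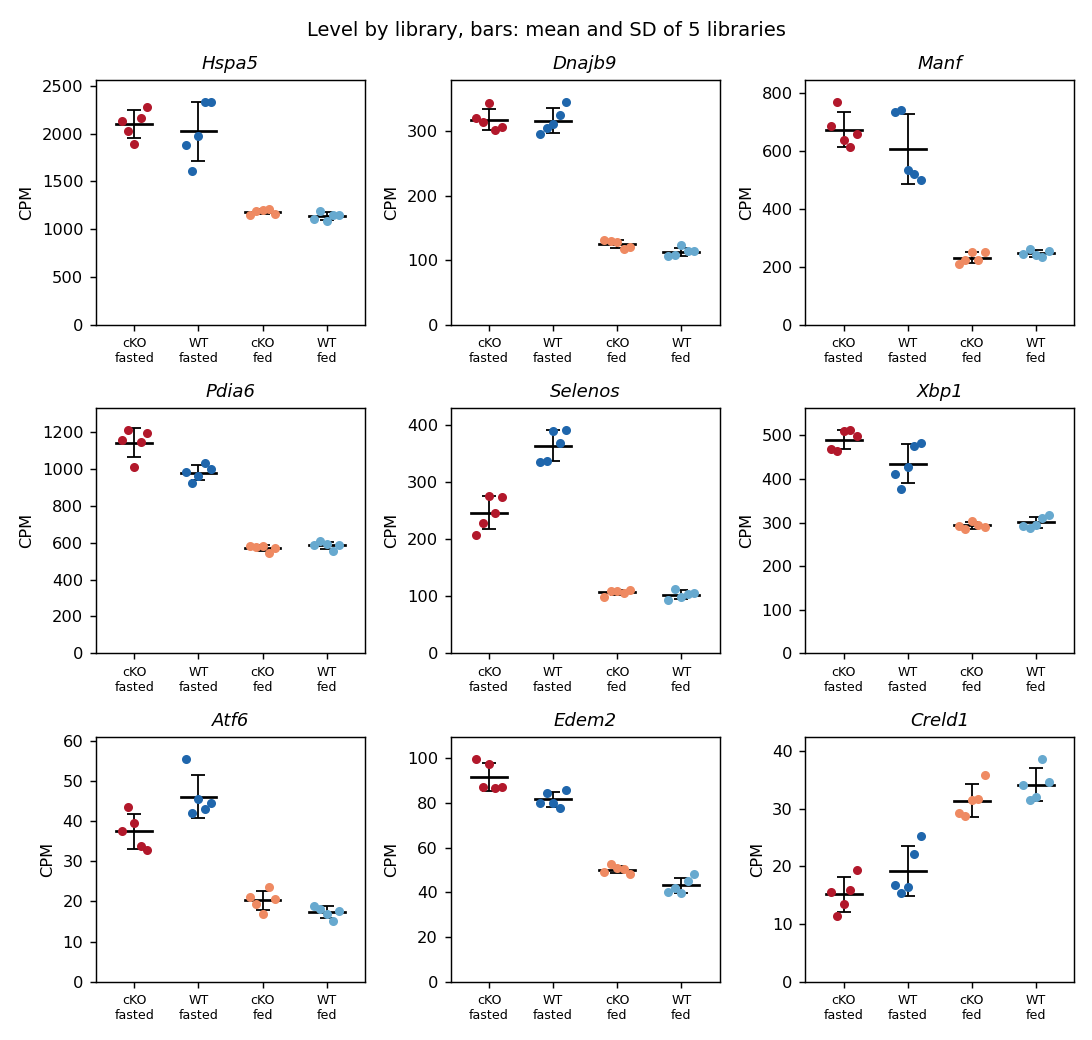
CPM of 9 members in each library, with the mean and SD of the 5 libraries in black and every axis starting at 0. In each panel but Creld1 the fasted libraries of a genotype lie above its fed libraries, in Creld1 they lie below, and Selenos is higher in fasted wild type than in fasted cKO libraries.

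The lectin chaperones hold glycoproteins while their sugars are read. Calr (calreticulin, luminal) had 584, 562, 502, 592 and 633 CPM in fasted cKO, against 433, 429, 451, 409 and 457 CPM in fed cKO libraries. In wild type it had 520.2, 517, 542, 584 and 605 CPM fasted, against 459.7, 454, 449, 410.1 and 421 CPM fed. Fasted and fed libraries did not overlap in either genotype, with log2 fold changes of 0.399 ± 0.059 (adjusted p = 1.8e-06) in cKO and 0.34 ± 0.059 (adjusted p = 1.63e-05) in wild type. Canx (calnexin, in the membrane) had 1082, 1137, 1043, 987 and 1053 CPM in fasted cKO, against 845, 890.3, 848, 875 and 799 CPM in fed cKO libraries. For wild type the values were 1038, 1031, 972, 1019 and 1053 CPM fasted, against 845, 908, 906, 904 and 916 CPM fed. Again the groups were apart, and the changes were small, 0.32 ± 0.046 (adjusted p = 1.33e-06) in cKO and 0.19 ± 0.046 (adjusted p = 0.000683) in wild type. Uggt1, the glucosyltransferase that marks unfolded glycoproteins for another round, had 65.8, 64.5, 52.95, 46.6 and 53.8 CPM in fasted cKO, against 53.1, 43.4, 44.8, 51.3 and 49.6 CPM in fed cKO libraries. In wild type Uggt1 had 54.6, 57.6, 47.8, 46.2 and 48.99 CPM fasted, against 57.3, 52.4, 48.7, 51.4 and 45.6 CPM fed. Fasted and fed libraries overlapped in both genotypes. Its rise in cKO (0.23 ± 0.093, adjusted p = 0.0409) was lost without fasted cKO replicate 1 or 2 or fed cKO replicate 2, 3 or 5 (adjusted p = 0.0534 to 0.133), with fasted replicates 3 to 5 alone (adjusted p = 0.453), with upper-quartile scaling (adjusted p = 0.0818) and with no filter (adjusted p = 0.0671). In wild type its change was -0.003 ± 0.093 (adjusted p = 0.981). With all libraries none of these 3 genes differed past edgeR's threshold between the genotypes when fasted, when fed or in the interaction, while the Canx interaction passed with fasted replicates 1 and 2 alone, as given above.

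Among the 10 genes of disulfide formation and proline isomerization, 9 rose on fasting in cKO, where 26% of all tested genes rose. In wild type 7 rose and 1 fell, where 29.6% of all tested genes rose and 31.3% fell. Pdia6, a protein disulfide isomerase that also acts on the sensors, changed most in cKO. It had 1158, 1210, 1011, 1150 and 1194 CPM in fasted cKO libraries, against 584, 576, 585, 547 and 571 CPM in fed cKO libraries. In wild type it had 983, 926, 962, 1033 and 1000 CPM fasted, against 587, 612, 594, 557 and 586 CPM fed. All fasted libraries lay above all fed ones, and the fasted genotypes overlapped only at fasted cKO replicate 3. The fasting effect was 0.999 ± 0.049 (adjusted p = 3.22e-15) in cKO and 0.74 ± 0.049 (adjusted p = 3.47e-13) in wild type, and the interaction was 0.26 ± 0.069 (adjusted p = 0.00928). P4hb, the archetype of the family, had 464, 437, 396, 478 and 469.5 CPM in fasted cKO, against 249, 244, 246, 251 and 249 CPM in fed cKO libraries. In wild type P4hb had 425, 393, 410, 452 and 438 CPM fasted, against 274, 249, 272, 274 and 271 CPM fed. Its groups were apart in both genotypes, with log2 fold changes of 0.86 ± 0.054 (adjusted p = 3.26e-13) in cKO and 0.66 ± 0.053 (adjusted p = 1.94e-11) in wild type. Pdia3 (ERp57), which works on glycoproteins with Calr and Canx, rose by 0.52 ± 0.068 (adjusted p = 2.45e-07) in cKO and by 0.41 ± 0.068 (adjusted p = 6.38e-06) in wild type. Its fasted wild type libraries ran from 1132 to 1589 CPM, with replicates 1 and 2 the lowest, against 982 to 1035 CPM when fed. The interaction for Pdia3 was 0.31 (adjusted p = 0.000409) with fasted replicates 1 and 2 alone and 0.002 (adjusted p = 0.985) with replicates 3 to 5 alone.

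Pdia4 (ERp72) responded in cKO neurons. It had 125, 106, 111, 129 and 139 CPM in fasted cKO, against 80.8, 78.7, 83.4, 105 and 112 CPM in fasted wild type libraries. When fed it had 93.2, 106, 89.8, 88.2 and 91.6 CPM in cKO, against 96.7, 93.5, 104, 113 and 89.97 CPM in wild type. Both pairs overlapped, and fasted wild type replicates 1 to 3 were the lowest of the 20 libraries. The fasting effect was 0.38 ± 0.093 (adjusted p = 0.00112) in cKO and -0.11 ± 0.093 (adjusted p = 0.297) in wild type, and the interaction was 0.49 ± 0.13 (adjusted p = 0.00941). The oxidases that feed these enzymes differed from each other. Ero1l, which encodes the oxidase ERO1α, had 73.5, 70.1, 75.5, 74.3 and 82.8 CPM in fasted cKO, against 69.7, 66.7, 62.8, 70.7 and 73.8 CPM in fasted wild type libraries. When fed it had 66.8, 69.6, 65.7, 66.9 and 64.1 CPM in cKO, against 78.1, 80.3, 73.9, 74.9 and 74.1 CPM in wild type. Its fed genotypes were apart and its fasted ones overlapped, and in wild type the highest fasted library fell just short of the lowest fed one. The changes were small, 0.18 ± 0.063 (adjusted p = 0.0203) in cKO and -0.15 ± 0.063 (adjusted p = 0.0405) in wild type, with an interaction of 0.33 ± 0.089 (adjusted p = 0.0108). The wild type fall was kept in 11 of 20 alternatives. It was lost without fasted wild type replicate 2 or 3 or fed wild type replicate 1 or 2 (adjusted p = 0.0727 to 0.117), with fasted replicates 3 to 5 alone (adjusted p = 0.0735), with DESeq2 size factors (adjusted p = 0.0677) or DESeq2's test (adjusted p = 0.0509), in a fit of those groups alone (adjusted p = 0.085) and with a replicate block (adjusted p = 0.0518). The cKO rise was lost without fasted cKO replicate 5 (adjusted p = 0.0742), with upper-quartile scaling (adjusted p = 0.067), with no filter (adjusted p = 0.0695) and with fasted replicates 1 and 2 alone (adjusted p = 0.237), which also ended the interaction call (adjusted p = 0.0652). With offsets for GC content and length, the cKO change of Ero1l was 0.05 (adjusted p = 0.583).

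Ero1lb (ERO1β), known mainly from hormone-secreting cells, had 21.8, 19.9, 17.03, 19.2 and 16.9 CPM in fasted cKO, against 15.9, 18.3, 13.3, 14.6 and 16.7 CPM in fed cKO libraries. In wild type Ero1lb had 20.2, 19.4, 15.5, 13.1 and 21.6 CPM fasted, against 13.5, 12.8, 9.85, 12.6 and 12.9 CPM fed. The groups overlapped in both genotypes, and fed wild type replicate 3 was the lowest of all. Its change was 0.27 ± 0.13 (adjusted p = 0.0986) in cKO and 0.54 ± 0.14 (adjusted p = 0.00121) in wild type. The thioredoxin-domain genes Txndc11 and Txndc5 are the members with the XBP1 motif in a promoter window. Txndc11 rose by 0.42 ± 0.12 (adjusted p = 0.00307) in cKO and by 0.75 ± 0.11 (adjusted p = 1.87e-06) in wild type, and its cKO rise was lost with fasted replicates 1 and 2 alone (adjusted p = 0.302). Txndc5 had 92.2, 86.4, 84.2, 95.1 and 107 CPM in fasted cKO, against 90.2, 80.4, 78.05, 78.1 and 68.2 CPM in fed cKO libraries. In wild type Txndc5 had 86.2, 88.1, 92.3, 108 and 113 CPM fasted, against 91.3, 88.5, 80.01, 88.6 and 83.1 CPM fed. Its fasted and fed libraries overlapped in both genotypes. Txndc5 changed by 0.24 ± 0.083 (adjusted p = 0.0181) in cKO and by 0.17 ± 0.083 (adjusted p = 0.0697) in wild type. Its cKO call was lost without fasted or fed cKO replicate 5 (adjusted p = 0.0759 and 0.0691) and with fasted replicates 1 and 2 alone (adjusted p = 0.0729). Its wild type rise passed with DESeq2 size factors (adjusted p = 0.0467) and with offsets for GC content and length (0.29, adjusted p = 0.00129). It also passed without fasted wild type replicate 1 or 2 (adjusted p = 0.0318 and 0.0377). The exons of Txndc5 share 11.9% of their bases with other genes, mainly Gm31834 on the opposite strand. The proline isomerases rose in both genotypes, Fkbp2 by 0.66 ± 0.064 (adjusted p = 1.6e-09) in cKO and 0.71 ± 0.064 (adjusted p = 1.69e-10) in wild type. Ppib (cyclophilin B) rose by 0.73 ± 0.089 (adjusted p = 8.22e-08) in cKO and 0.65 ± 0.089 (adjusted p = 3.63e-07) in wild type, with 24.96% of its exon bases shared with Snx22 on the opposite strand, so its reads are uncertain.

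Of the 5 sensor and transcription factor genes, 4 rose on fasting in cKO, where 26% of all tested genes rose, and 3 in wild type, where 29.6% did. Atf6, the membrane-bound factor that is cut free in the Golgi under stress, lies at chr1:170704674-170867771, minus strand. It had 37.5, 43.5, 39.6, 33.8 and 32.8 CPM in fasted cKO, against 21.2, 19.4, 16.96, 23.5 and 20.5 CPM in fed cKO libraries. In wild type Atf6 had 55.5, 42.1, 45.5, 43.02 and 44.6 CPM fasted, against 18.9, 18.1, 16.8, 15.1 and 17.8 CPM fed. Fasted libraries were above fed ones in both genotypes, and replicate 1 was high among the fasted wild type libraries. The rise was smaller in cKO (0.88 ± 0.10, adjusted p = 5.25e-08) than in wild type (1.41 ± 0.10, adjusted p = 3.73e-12), with an interaction of -0.53 ± 0.15 (adjusted p = 0.0125). In fasted libraries Atf6 was lower in cKO than in wild type (-0.301 ± 0.10, adjusted p = 0.0371), but this call was lost without fasted wild type replicate 1, 3 or 5 or fasted cKO replicate 1, 4 or 5 (adjusted p = 0.0531 to 0.116), with no filter (adjusted p = 0.0536), in a fit of those groups alone (adjusted p = 0.0775) and with fasted replicates 1 and 2 alone (adjusted p = 0.315). With that set the interaction did not pass either (adjusted p = 0.0827). Its paralog Atf6b had 12.1, 10.3, 8.48, 9.54 and 9.78 CPM in fed cKO, against 14.6, 13.9, 14.4, 14.02 and 15.5 CPM in fed wild type libraries. Those fed groups were apart, with a log2 difference of -0.53 ± 0.14 (adjusted p = 0.0159), lost without fed cKO replicate 3 (-0.47, adjusted p = 0.0514). With all libraries Atf6b did not pass on fasting, at 0.16 ± 0.15 (adjusted p = 0.384) in cKO and -0.201 ± 0.14 (adjusted p = 0.229) in wild type. With offsets for GC content and length it passed in cKO (0.415, adjusted p = 0.0282). Without fasted wild type replicate 2 it passed in wild type (-0.33, adjusted p = 0.0459).

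Xbp1, whose spliced form drives chaperone and degradation genes, had 469, 464, 510, 511 and 498 CPM in fasted cKO, against 293, 284, 304, 295 and 290.5 CPM in fed cKO libraries. In wild type it had 411, 376, 428, 477 and 483 CPM fasted, against 292, 288, 294, 311 and 317 CPM fed. Fasted libraries were above fed ones throughout, with log2 fold changes of 0.74 ± 0.059 (adjusted p = 2.77e-11) in cKO and 0.54 ± 0.058 (adjusted p = 7.02e-09) in wild type. Gene counts do not tell spliced from unspliced Xbp1. Its fasted level was higher in cKO (0.17 ± 0.058, adjusted p = 0.0356), a call lost without fasted wild type replicate 1, 2 or 3 or fasted cKO replicate 3, 4 or 5 (adjusted p = 0.0639 to 0.0992), with fasted replicates 3 to 5 alone (adjusted p = 0.064), with upper-quartile scaling (adjusted p = 0.105) and in a fit of those groups alone (adjusted p = 0.156). Ern1, which encodes IRE1α, the sensor that splices Xbp1, was low. It had 13.8, 9.61, 7.07, 6.24 and 6.09 CPM in fasted cKO, against 4.36, 3.903, 2.94, 3.83 and 3.54 CPM in fed cKO libraries. In wild type Ern1 had 7.83, 12.8, 5.64, 5.29 and 8.496 CPM fasted, against 2.07, 2.44, 3.14, 2.804 and 4.98 CPM fed. The groups did not overlap, and fasted replicates 1 and 2 held the highest or nearly the highest values. The changes were 1.201 ± 0.26 (adjusted p = 0.000364) in cKO and 1.37 ± 0.27 (adjusted p = 6.92e-05) in wild type. Eif2ak3, which encodes the sensor PERK, had 3.25, 6.197, 9.04, 7.94 and 8.83 CPM in fasted cKO, against 2.53, 3.55, 4.41, 5.96 and 4.65 CPM in fed cKO libraries. In wild type Eif2ak3 had 6.195, 6.59, 11.5, 8.33 and 10.3 CPM fasted, against 9.39, 5.31, 6.28, 4.67 and 5.38 CPM fed. Both pairs overlapped. Its rise in cKO (0.74 ± 0.26, adjusted p = 0.0182) was lost without fasted cKO replicate 3 or 5 or fed cKO replicate 1 (adjusted p = 0.0525 to 0.0578) and with fasted replicates 1 and 2 alone (adjusted p = 0.698). In wild type its change was 0.47 ± 0.25 (adjusted p = 0.109).

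Of 11 degradation genes, 5 rose on fasting in cKO, where 26% of all tested genes rose, and 3 in wild type, where 29.6% did, so the wild type count was near the share of all genes. None of the 11 fell with all libraries in edgeR. Selenos (VIMP), a selenoprotein of the ER membrane that recruits the extraction ATPase p97, lies at chr7:66079649-66089405, plus strand and had the largest fasting effect of all 42 members in wild type. Its level was 207, 229, 275, 246 and 274 CPM in fasted cKO libraries, against 334, 336, 389, 368 and 389.9 CPM in fasted wild type libraries. Fed libraries held 98.96, 109, 109, 106 and 111 CPM in cKO, against 92.6, 113, 97.8, 103 and 105 CPM in wild type. Fasted cKO libraries lay between fed and fasted wild type ones with no overlap, while the fed genotypes overlapped. The fasting effect was 1.21 ± 0.073 (adjusted p = 1.71e-13) in cKO and 1.83 ± 0.073 (adjusted p = 8.99e-18) in wild type, and the interaction was -0.62 ± 0.10 (adjusted p = 8.95e-05). The fasted difference of cKO from wild type was -0.56 ± 0.071 (adjusted p = 3.99e-06), and when fed it was 0.06 ± 0.073 (adjusted p = 0.659).

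The Edem genes encode the mannosidase-like proteins that single out misfolded glycoproteins. Edem2 had 99.8, 87.4, 97.3, 86.6 and 87.2 CPM in fasted cKO, against 49.04, 52.6, 50.9, 50.3 and 48.2 CPM in fed cKO libraries. In wild type Edem2 had 80.2, 84.3, 80.3, 77.6 and 85.8 CPM fasted, against 40.4, 42.1, 39.9, 45.2 and 48.1 CPM fed. The rise was without overlap in both, 0.87 ± 0.068 (adjusted p = 2.24e-11) in cKO and 0.92 ± 0.068 (adjusted p = 3.57e-12) in wild type. Edem3 had 68.8, 60.8, 59.1, 48.5 and 61.4 CPM in fasted cKO, against 60.7, 45.98, 41.98, 37.05 and 33.4 CPM in fasted wild type libraries. When fed Edem3 had 37.4, 31.8, 38.2, 36.7 and 35.6 CPM in cKO, against 47.7, 48.7, 43.97, 45.2 and 49.2 CPM in wild type. The fed genotypes were apart, with cKO lower, and the fasted ones overlapped through fasted wild type replicate 1, which lay far above replicates 4 and 5. Edem3 changed by 0.73 ± 0.11 (adjusted p = 3.57e-06) in cKO and by -0.101 ± 0.11 (adjusted p = 0.452) in wild type, with an interaction of 0.83 ± 0.16 (adjusted p = 0.000547). Its fasted genotype difference (0.45 ± 0.11, adjusted p = 0.00609) did not pass with fasted replicates 1 and 2 alone (0.29, adjusted p = 0.119) or in a fit of those 2 groups only (adjusted p = 0.0518). Edem1 had 16.5, 14.9, 13.3, 11.6 and 12.9 CPM in fasted cKO, against 9.94, 8.01, 8.79, 9.35 and 6.51 CPM in fasted wild type libraries. When fed it had 8.03, 5.46, 6.38, 3.75 and 4.78 CPM in cKO, against 6.21, 3.73, 5.14, 5.69 and 5.302 CPM in wild type. Fasted cKO libraries were above all others. The fasted genotype difference was 0.699 ± 0.18 (adjusted p = 0.00748) and did not pass with fasted replicates 1 and 2 alone (0.82, adjusted p = 0.0575). The fasting effect of Edem1 was 1.28 ± 0.18 (adjusted p = 1.14e-06) in cKO and 0.71 ± 0.19 (adjusted p = 0.00195) in wild type, and their difference did not pass (0.58 ± 0.26, adjusted p = 0.131).

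Derl2, part of the channel for chains leaving the ER, had 32.4, 38.6, 42.6, 37.8 and 38.1 CPM in fasted cKO, against 25.1, 28.9, 29.4, 29.7 and 32.3 CPM in fed cKO libraries. In wild type Derl2 had 40.8, 31.1, 32.2, 34.8 and 34.4 CPM fasted, against 24.2, 33.96, 31.7, 34.4 and 29.9 CPM fed. Fasted and fed libraries were apart in cKO and overlapped in wild type. It rose in cKO (0.38 ± 0.10, adjusted p = 0.00262) and not past the threshold in wild type (0.17 ± 0.10, adjusted p = 0.154). Its cKO call was lost with fasted replicates 1 and 2 alone (adjusted p = 0.0695). With all libraries the core of the degradation complex did not pass for fasting. Syvn1 (HRD1), its ubiquitin ligase, changed by -0.06 ± 0.098 in cKO and 0.104 ± 0.097 in wild type (log2, SE), and Sel1l, its adaptor, by -0.04 ± 0.076 in cKO and -0.07 ± 0.076 in wild type. With offsets for GC content and length, Syvn1 passed in wild type (0.37, adjusted p = 0.00205), and with fasted replicates 1 and 2 alone Sel1l did (-0.22, adjusted p = 0.0295). Herpud1, a stress-induced scaffold of that complex, averaged 162 ± 21.2 CPM in fasted cKO and 154 ± 32.96 CPM in fasted wild type, and 163 ± 8.45 CPM in fed cKO and 149 ± 6.77 CPM in fed wild type libraries (SD, n = 5 each). Its fasted wild type libraries lay on both sides of the fed ones, with 123 and 117 CPM in replicates 1 and 2 and 176, 193 and 159.7 CPM in replicates 3 to 5, against 139 to 157 CPM when fed. Os9, a lectin that brings glycoproteins to the complex, had 78.9 and 79.8 CPM in fasted wild type replicates 1 and 2 and 108, 119 and 111 CPM in replicates 3 to 5, against 84.2 to 104 CPM when fed. With fasted replicates 1 and 2 alone, Herpud1 (-0.33, adjusted p = 9.04e-05) and Os9 (-0.27, adjusted p = 0.00336) were lower on fasting in wild type. Derl1 changed by 0.07 ± 0.075 in cKO and 0.11 ± 0.074 in wild type, and Derl3 was low throughout, at 0.718 to 4.05 CPM over the 20 libraries. Its fasted genotype difference, 1.06 ± 0.42 (adjusted p = 0.0715), passed without fasted cKO replicate 3 (1.29, adjusted p = 0.0253) or fasted wild type replicate 1 (1.34, adjusted p = 0.0312).

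The remaining genes encode ER membrane proteins. Creld1, the membrane-anchored relative of Creld2 with known roles in heart development, was the only member lower on fasting in both genotypes. It had 15.5, 11.4, 13.4, 15.9 and 19.5 CPM in fasted cKO, against 29.3, 28.7, 31.5, 31.7 and 35.9 CPM in fed cKO libraries. In wild type it had 16.8, 15.4, 16.4, 22.2 and 25.3 CPM fasted, against 34.03, 31.6, 31.98, 38.6 and 34.6 CPM fed. Fasted and fed libraries were apart in both, with log2 fold changes of -1.05 ± 0.13 (adjusted p = 1.72e-07) in cKO and -0.83 ± 0.13 (adjusted p = 3.54e-06) in wild type. Creld1 and Creld2 thus moved in opposite directions in cKO neurons and both fell in wild type neurons. Wfs1 (wolframin), which helps to hold ER calcium, changed by 0.06 ± 0.098 (adjusted p = 0.636) in cKO and -0.14 ± 0.098 (adjusted p = 0.207) in wild type. With offsets for GC content and length, Wfs1 passed in cKO (0.36, adjusted p = 0.00571).

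Between the genotypes, fewer members differed. In fasted mice 9 members were higher and 2 lower in cKO than in wild type, where 11.5% of all tested genes were higher and 8.84% lower. The median member log2 difference was 0.09, against -0.01 over all tested genes. The groups did not overlap for 8 members, with no count over all tested genes to set beside it. The higher ones were Hsp90b1, Dnajc3, Sdf2l1, Creld2, Pdia4, Pdia6, Xbp1, Edem1 and Edem3, and the lower ones Atf6 and Selenos. With upper-quartile scaling, 43.9% and not 56.5% of all calls in this comparison were upward, and the member counts were 8 higher and 4 lower. With fasted replicates 3 to 5 alone the counts were 9 and 4, and with replicates 1 and 2 alone they were 10 and 1. In fed mice 1 member was higher and 7 were lower in cKO, where 5.87% of all tested genes were higher and 3.81% lower. The median was -0.06, against 0.01 over all tested genes. The groups did not overlap for 8 members, again with no count over all tested genes.

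In fed neurons Creld2, Hyou1, Dnajb11, Sdf2l1, Ero1l, Atf6b and Edem3 were lower in cKO and Edem2 was higher. The sizes were modest outside Creld2 and Atf6b, with -0.38 ± 0.11 for Hyou1, -0.25 ± 0.083 for Dnajb11, -0.29 ± 0.089 for Sdf2l1, -0.195 ± 0.062 for Ero1l, -0.39 ± 0.11 for Edem3 and 0.22 ± 0.068 for Edem2 (log2, SE). Of the 8, Creld2 alone kept its call without each of the 10 fed libraries in turn, and the count was then 2 to 5. Fasting and genotype comparisons share libraries, so their values are given side by side and not set against each other. In the interaction, Creld2, Edem3, Sdf2l1, Dnajc3, Dnajb11, Pdia4 and Pdia6 kept a higher log2 fasting effect in cKO, and Selenos a lower one, under all 29 alternative settings. The calls of Hyou1, Ero1l and Atf6 were lost under some of them.

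**Figure D4:**
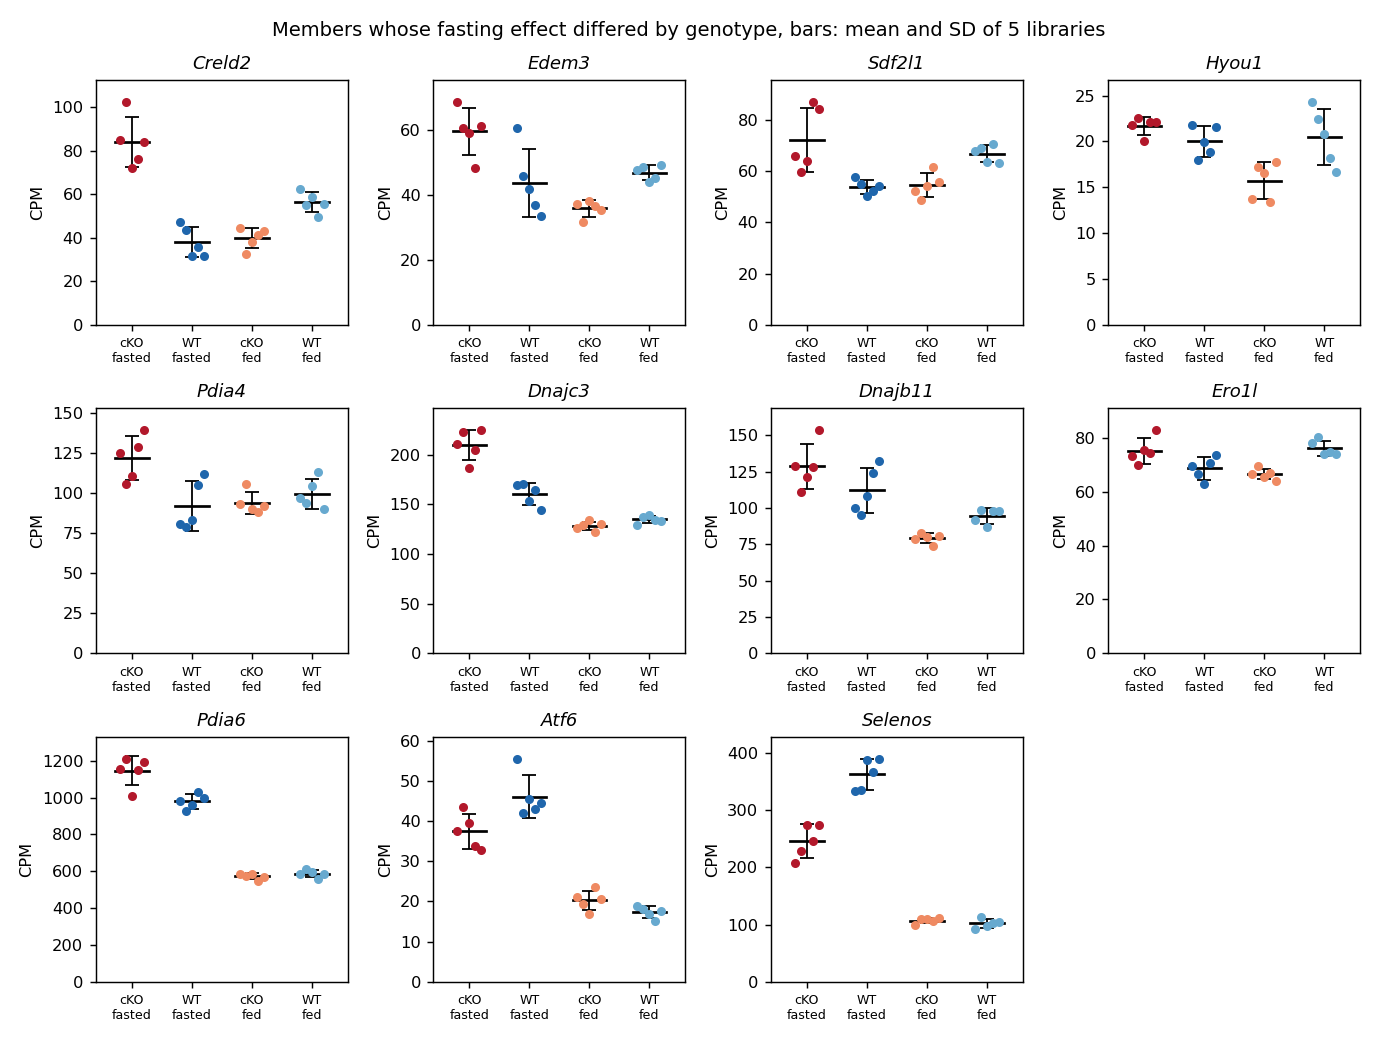
CPM in each library of the 11 members called in the interaction, with the mean and SD of 5 libraries in black and axes from 0. Creld2 is highest in fasted cKO and lower in fasted than in fed wild type libraries, Edem3, Sdf2l1, Hyou1, Pdia4, Dnajc3, Dnajb11, Ero1l and Pdia6 have a larger excess of fasted over fed in cKO, and Atf6 and Selenos a smaller one.

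**Figure D5:**
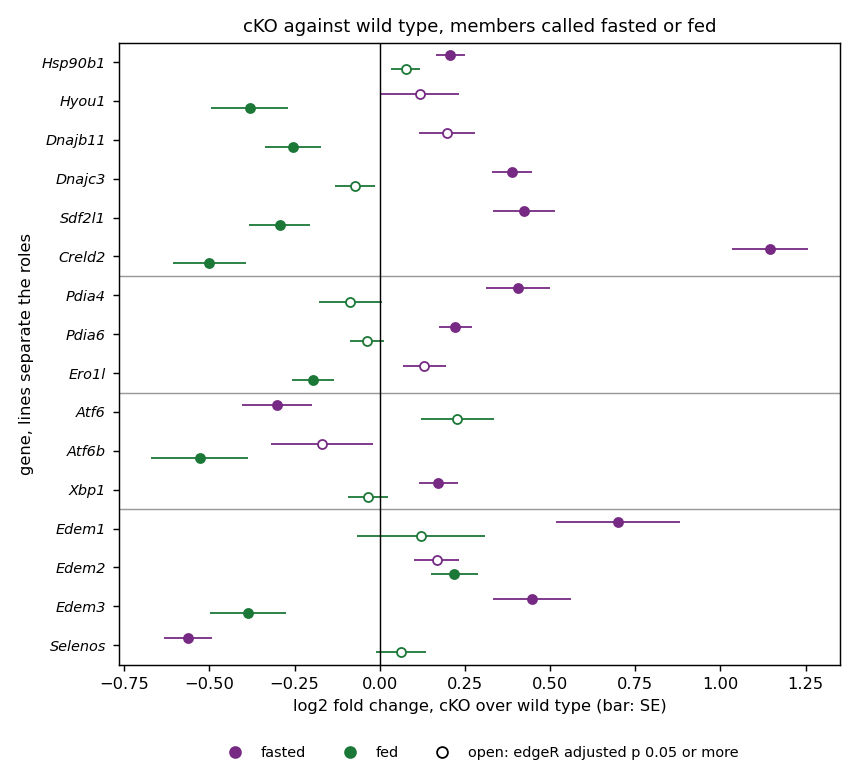
Points are log2 fold changes of cKO over wild type, fasted in purple above fed in green, for the 16 members called in either state, with bars of 1 SE from edgeR and filled points past an adjusted p of 0.05. Creld2 lies at 1.15 when fasted and -0.50 when fed, and Selenos at -0.56 when fasted and 0.06 when fed.

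Per length of exon, levels spanned a wide range. In fed wild type neurons Pdia3 stood highest at 324 CPM per kilobase, followed by Hsp90b1 (272), Hspa5 (268), Fkbp2 (198) and Canx (191), and these exceeded at least 97.8% of the 13116 tested genes with a length. Cdnf (0.281), Ern1 (0.378), Derl3 (0.58) and Edem1 (0.808 CPM per kilobase) stood lowest. On this scale Hspa5 was at 496 in fasted cKO and 479 in fasted wild type, against 279.6 in fed cKO and 268 CPM per kilobase in fed wild type neurons.

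Members with an ER stress element or the second element can be set beside the 26 with a window that holds neither. In cKO 8 of 12 with an element rose and none fell, with a median log2 fold change of 0.50, and 20 of 26 without rose and 1 fell, with a median of 0.47. In wild type 8 of 12 rose and 1 fell (median 0.25), and 12 of 26 rose and 3 fell (median 0.44). For the interaction 4 of 12 were called higher (median 0.13), and 4 of 26 higher and 1 lower (median 0.09). Of all tested genes, 26% rose and 27% fell on fasting in cKO, and 29.6% rose and 31.3% fell in wild type. In the interaction 8.87% were called higher and 8.44% lower. No test was made of the differences between members with and without an element. Of the 27 other genes whose window holds the ER stress element, 9 passed the filter, and of these 2 rose and 5 fell on fasting in cKO and 2 rose and 4 fell in wild type. Alg12, which shares its element with Creld2 and encodes a mannosyltransferase of N-glycan synthesis, fell on fasting, with log2 fold changes of -0.62 ± 0.17 (adjusted p = 0.0026) in cKO and -0.45 ± 0.17 (adjusted p = 0.021) in wild type. Creld2 and Alg12 thus moved apart in cKO, while both fell in wild type. The interaction of Alg12 did not pass in edgeR (-0.17, adjusted p = 0.661).

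Other genes of the pathway were counted from lists of related function, to be read against the shares of all tested genes given above. These were 26% higher and 27% lower for fasting in cKO, and 29.6% and 31.3% in wild type. For cKO against wild type they were 11.5% and 8.84% when fasted, and 5.87% and 3.81% when fed. For the interaction they were 8.87% and 8.44%. Of 32 tested further folding and redox genes, 20 rose and 5 fell on fasting in cKO, and 19 rose and 3 fell in wild type. Serp1, which protects unfinished membrane proteins, had 117 ± 10.4 CPM in fasted cKO and 125 ± 9.87 CPM in fasted wild type, and 39.8 ± 2.34 CPM in fed cKO and 38.1 ± 2.87 CPM in fed wild type libraries (SD, n = 5 each), a log2 change of 1.56 ± 0.076 (adjusted p = 2.71e-15) in cKO and 1.72 ± 0.076 (adjusted p = 8.23e-17) in wild type. Pdia5, another disulfide isomerase, had 20.8 ± 3.33 CPM in fasted cKO and 11.9 ± 2.87 CPM in fasted wild type, and 7.07 ± 1.36 CPM in fed cKO and 9.81 ± 1.31 CPM in fed wild type libraries. Its interaction was 1.28 ± 0.23 (adjusted p = 0.000289). The redox enzyme gene Prdx4 had an interaction of the opposite sign, -0.46 ± 0.082 (adjusted p = 0.000289). In this list 3 members were higher and 4 lower in cKO when fasted, 4 and 1 when fed, and 3 and 4 in the interaction.

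Of 31 genes of N-glycosylation, 18 rose and 4 fell on fasting in cKO, and 14 rose and 2 fell in wild type. Stt3b, a catalytic subunit of the oligosaccharyltransferase, rose by 1.23 ± 0.083 (adjusted p = 1.39e-12) in cKO and 1.58 ± 0.084 (adjusted p = 3.93e-15) in wild type. Ostc, another subunit, rose by 1.302 ± 0.066 (adjusted p = 6.13e-15) in cKO and 1.14 ± 0.066 (adjusted p = 2.69e-14) in wild type. In cKO against wild type 5 were higher and 2 lower when fasted, 2 and 1 when fed, and the interaction called 3 in each direction. Of 40 further degradation genes, 10 rose and 12 fell on fasting in cKO, and 9 rose and 12 fell in wild type, both near the shares of all tested genes. In cKO 8 were higher and 6 lower when fasted. In fed neurons edgeR's adjusted test called 0 of these 40, with 5 at an unadjusted p under 0.05 and 0 called by DESeq2. The interaction called 4 higher and 2 lower.

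The list of unfolded protein and stress signalling held 33 tested genes, of which 14 rose and 3 fell on fasting in cKO, and 11 rose and 11 fell in wild type. Atf3, a stress-induced transcription factor, had 21.5 ± 7.71 CPM in fasted cKO and 3.63 ± 1.101 CPM in fasted wild type, and 9.33 ± 3.83 CPM in fed cKO and 5.95 ± 2.095 CPM in fed wild type libraries (SD, n = 5 each). Its difference when fasted was 2.57 ± 0.30 (adjusted p = 1.13e-06), and its interaction was 1.91 ± 0.41 (adjusted p = 0.00149). Eif2s1, which encodes the eIF2α subunit that PERK phosphorylates, had an interaction of 1.01 ± 0.15 (adjusted p = 2.49e-05). Ddit3 (CHOP), the death-related factor downstream of PERK, rose by 0.81 ± 0.076 (adjusted p = 6.63e-10) in cKO and 0.89 ± 0.076 (adjusted p = 6.4e-11) in wild type, with 10.9% of its exon bases shared with another annotated gene. In this list 6 were higher and 3 lower in cKO when fasted, 3 and 2 when fed, and 6 and 5 in the interaction.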

How the data were processed

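RNA from 1000 sorted neurons per library was amplified over 15 PCR cycles, per the labels' protocols, so counts are not independent molecules and limits from counts cover counting error only. The deposited table holds the authors' raw counts per gene for all 20 libraries. The authors' size-factor normalized counts, a signal unit deposited beside them, were recomputed from the counts within a relative difference of 1.2e-11 and not used further. Per the submitters' processing notes, Trimmomatic 0.36, HISAT2 2.1.0, featureCounts of Subread 1.6.2 and DESeq2 1.20.0 were used with GRCm38/mm10. Which annotation and strand setting featureCounts ran with is not given in the sources used here.

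Genes passing filterByExpr (minimum count 10, total 15) were scaled by TMM and fitted with 4 group means over all 20 libraries in edgeR 4.0.16 (limma 3.58.1, R 4.3.3), by the two-sided quasi-likelihood test. The 5 comparisons were fasting in cKO, fasting in wild type, cKO against wild type fasted and fed, and the interaction, with p adjusted by Benjamini-Hochberg within each over 13237 genes at 0.05. The script was tested on simulated counts. Per-library values are CPM over TMM-scaled library sizes. Coordinates, exon lengths and overlaps are from GENCODE M21 on GRCm38, in which 22710 of 23129 table names were found, and promoter windows are RefSeq's for GRCm38.p6. Atf6, Derl1, Hyou1 and Manf were not matched to a window. Genes with over 10% of exon bases shared are called uncertain. The members, pathway lists and marker lists were chosen with earlier results of these data known, so their counts describe and do not test the lists. Library values were given for the called members with the 2 smallest p of each role and comparison, all members the interaction called and those whose fasting calls differed between genotypes. Those of Hspa5, Ern1, Edem1, Dnajc10, Syvn1, Herpud1 and Os9 were added after being seen. Alternatives were other scalings, filters, DESeq2 1.42.0, separate fits, a replicate block, GC and length offsets, the replicate sets and each library left out.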

Additional observations from a re-analysis of the deposited data

Results flagged for a closer look

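In 8 of 168 sets of 5 libraries, 1 library lay far from the other 4 by Dixon's criterion (critical value 0.71), and chance flags about 1 in 20 such sets, so these are given as values. In fasted libraries, cKO replicate 2 had 592.7 CPM of Fkbp2, against 492 to 510.1 CPM in the other 4. Wild type fasted replicate 1 had 55.52 CPM of Atf6, against 42.1 to 45.5 CPM in the rest of its group. In fed cKO, replicate 2 had 105.9 CPM of Pdia4, against 88.2 to 93.2 CPM in the others. Fed wild type replicate 1 had 845.3 CPM of Canx, against 904 to 916 CPM. Fed wild type replicate 2 had 248.9 CPM of P4hb, against 270.6 to 274 CPM. Fed wild type replicate 3 stood apart for 3 genes, with 9.85 CPM of Ero1lb, against 12.6 to 13.5 CPM, 99.14 CPM of Sel1l, against 109 to 112 CPM, and 48.75 CPM of Syvn1, against 36.8 to 39.3 CPM.

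The fasting effect differed between the genotypes for 11 members by the interaction term in edgeR. The log2 fasting effect in cKO exceeded that in wild type by 1.645 for Creld2, 0.833 for Edem3, 0.717 for Sdf2l1, 0.498 for Hyou1, 0.492 for Pdia4, 0.462 for Dnajc3, 0.451 for Dnajb11, 0.326 for Ero1l and 0.259 for Pdia6. It differed by -0.624 for Selenos and by -0.530 for Atf6. Their adjusted p and library values stand in the report, with the Hyou1, Ero1l and Atf6 calls resting on particular libraries or settings.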

How the results depend on the processing

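Among members, 25 of 32 fasting calls in cKO and 24 of 26 in wild type kept direction and threshold under every alternative run. So did 6 of 11 genotype calls in fasted mice, 1 of 8 in fed mice (Creld2) and 8 of 11 interaction calls. The fed genotype comparison was the least stable: leaving out 1 library at a time gave 2 to 5 calls against 8, and fitting the fed groups alone gave 13 (4 higher, 9 lower). The cause was not tested. Over all tested genes, 20.3% were called for genotype in fasted mice, against 11% with those groups fitted alone and 12.1% with replicates 1 and 2. For genotype in fed mice 9.68% were called, against 22.8% with the fed groups fitted alone, and for the interaction 17.3%, against 26.5% with replicates 3 to 5. With fasted replicates 1 and 2 alone, Herpud1 (-0.331) and Os9 (-0.272) changed sign and passed in wild type fasting. The Hspa5 interaction passed with that set at 0.212 (adjusted p = 0.025), against -0.007 (adjusted p = 0.972) with all libraries. With fasted replicates 3 to 5 alone the Hspa5 interaction was -0.125 (adjusted p = 0.174). With a promoter window ending at the gene start, the second element remained in 1 member, because the Dnajb11 match lies past the start. No scaling moved the median of all genes by more than 0.1 on the log2 scale.

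The same replicate number did not pair fasted with fed libraries, or the fed genotypes with each other. Correlations of same-numbered deviations ran from -0.054 to 0.037 in those pairs of groups. Between fasted genotypes they were weak but all above 0, from 0.022 to 0.131, with 2 of 5 over 0.1. Their mean there was 0.09, against -0.02 for libraries of different numbers. With a replicate block the calls were 32 for fasting in cKO, 25 for fasting in wild type, 12 and 6 for genotype in fasted and fed mice, and 12 for the interaction. Low counts limit Cdnf, and Derl3, which passed in a few settings only.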

Other observations

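Edem2 and Syvn1 were apart between the fasted genotypes, and Dnajc10 nearly so between the fed ones, without passing the adjusted test. The share of all tested genes apart in this way was not counted, so this is no result about the members. Edem2 had 99.8, 87.4, 97.3, 86.6 and 87.2 CPM in fasted cKO, against 80.2, 84.3, 80.3, 77.6 and 85.8 CPM in fasted wild type libraries, a log2 difference of 0.17 ± 0.067 (adjusted p = 0.0792). Syvn1 had 33.4, 39.7, 33.8, 39.4 and 36.5 CPM in fasted cKO, against 42.3, 45.98, 40.8, 42.9 and 44.6 CPM in fasted wild type libraries, a difference of -0.24 ± 0.099 (adjusted p = 0.0821). In fed neurons Dnajc10 had 148.1, 162.1, 159.1, 153.1 and 151.1 CPM in cKO, against 148.1, 137.5, 142, 145.6 and 138.2 CPM in wild type, a difference of 0.12 ± 0.056 (adjusted p = 0.191). No library of one genotype crossed into the other for Edem2 and Syvn1, and for Dnajc10 the lowest cKO and the highest wild type library met at 148.1 CPM.

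Among stress-signalling genes outside the 42, Nck1, an adaptor known to act with the eIF2α phosphatase, had an interaction of 0.78 ± 0.097 (adjusted p = 2.42e-06). It averaged 86.6 ± 3.85 CPM in fasted cKO and 65.95 ± 6.14 CPM in fasted wild type, and 59.1 ± 3.35 CPM in fed cKO and 77.2 ± 2.94 CPM in fed wild type libraries (SD, n = 5 each).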
